A study of Mus musculus with 12 samples.

Results

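Spleens of mice labelled DUSP1-/- and DUSP1+/+ were compared 6 h after an intraperitoneal dose of E. coli lipopolysaccharide (LPS, the cell wall component that sets off endotoxin shock) of 10 µg per g. The comparison takes the 3 arrays titled DUSP1-/- LPS and the 3 titled DUSP1+/+ LPS, 6 of the 12 arrays of the series, and all 22626 mouse probe sets of the Affymetrix MOE430A 2.0 chip. The 6 other arrays are untreated controls, 3 titled DUSP1-/- control and 3 titled DUSP1+/+ control. Each array holds 5 µg of total RNA from the spleen of 1 mouse. The labels give no age, sex, strain background or description of the altered allele, and the groups are called knockout and wild-type here after their titles.

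Dusp1 encodes a nuclear phosphatase that removes the activating phosphates from the MAP kinases p38, JNK and ERK. LPS, sensed by Toll-like receptor 4, switches on these kinases together with NF-kB, and Dusp1 is itself induced as a brake on them. Active p38 and JNK raise the output of many inflammatory genes through AP-1 transcription factors and through the stability of mRNAs with AU-rich elements. The spleen holds B and T cells, red pulp macrophages, dendritic cells, neutrophils, red cell precursors and stroma. In RNA of a whole organ, fewer cells of a type and less RNA per cell cannot be told apart.

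Dusp1 RNA itself gave no check of the titles. Its intensity was 2248, 2142 and 2116 in wild-type LPS arrays and 4963, 2948 and 4996 in knockout LPS arrays. Every knockout array was above every wild-type array. The difference (0.95 ± 0.41 on the log2 scale, where ± is limma's standard error) did not pass (adjusted p = 0.528), and the labels do not say which stretch of the gene was changed. Every direction given here therefore rests on the titles. Of the 100 measured genes that lie nearest Dusp1 on chromosome 17, 50 on each side, 0 were called, against 0.363% of all genes. Their median difference was -0.06. In 20 of the 100 the groups did not overlap in either direction, against 18.3% of all genes.

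After LPS a small number of genes differed between the knockout and the wild-type spleens, among them genes of secreted proteases, protease inhibitors, chemokines and cytokines that were higher in the knockout. By the probe set that represents each gene, the largest called rises were in Serpinb2, an inhibitor of plasminogen activators (9.83-fold), in the macrophage elastase gene Mmp12 (8.77-fold) and in the chemokine gene Ccl4 (5.63-fold). The largest called falls were in Cebpg, a partner of C/EBP and ATF4 factors (5.87-fold), and in the serine synthesis gene Psph (4.46-fold). A probe set was called where limma's moderated test gave a Benjamini-Hochberg adjusted p under 0.05 over all 22626 probe sets. That held for 72 probe sets (0.318%), 38 higher (0.168%) and 34 lower (0.150%) in the knockout. In all 72 the 2 groups of 3 arrays did not overlap and the difference was at least 2-fold. Counted by gene in this way, 45 of 12393 genes were called (0.363%), 27 higher (0.218%) and 18 lower (0.145%). A further 16 genes were called by another of their probe sets.

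The number of calls changed with the arrays in the fit, and why it changed was not tested. A fit of the 6 LPS arrays alone called 0 probe sets (limma, smallest adjusted p = 0.0534, with 283 probe sets under an adjusted p of 0.1 and 3097 under an unadjusted p of 0.05). Without 1 LPS array the count was 22, 20 and 8 for knockout replicates 1, 2 and 3, and 43, 4 and 9 for wild-type replicates 1, 2 and 3. Without 1 control array it was 108, 108 and 45 for knockout replicates 1, 2 and 3 and 69, 30 and 59 for wild-type replicates 1, 2 and 3. All 72 kept their direction in each of the 27 refits that tested them. Their LPS groups did not overlap, so leaving out arrays could not turn the direction, and this adds no support. The plot of calls by setting gives the counts and the number shared with the 72.

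**Figure D1:**
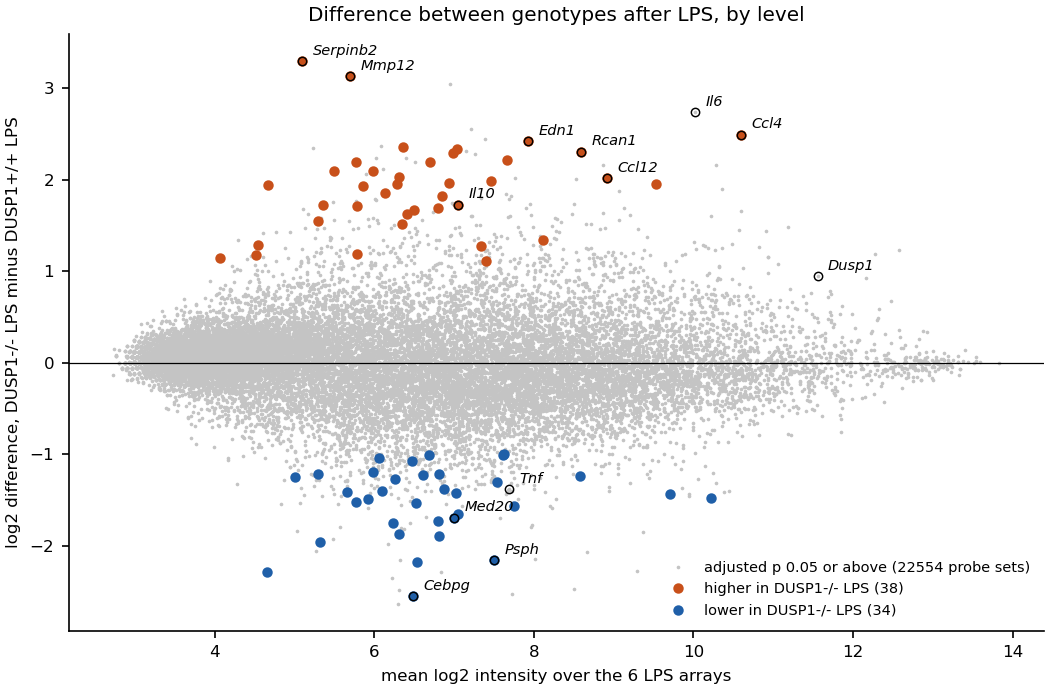
Log2 difference between DUSP1-/- LPS and DUSP1+/+ LPS against the mean log2 intensity of the 6 LPS arrays, 1 point per probe set. The 38 probe sets called higher and the 34 called lower are coloured, and black rings mark the labelled genes, of which Il6, Tnf and Dusp1 were not called.

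**Figure D2:**
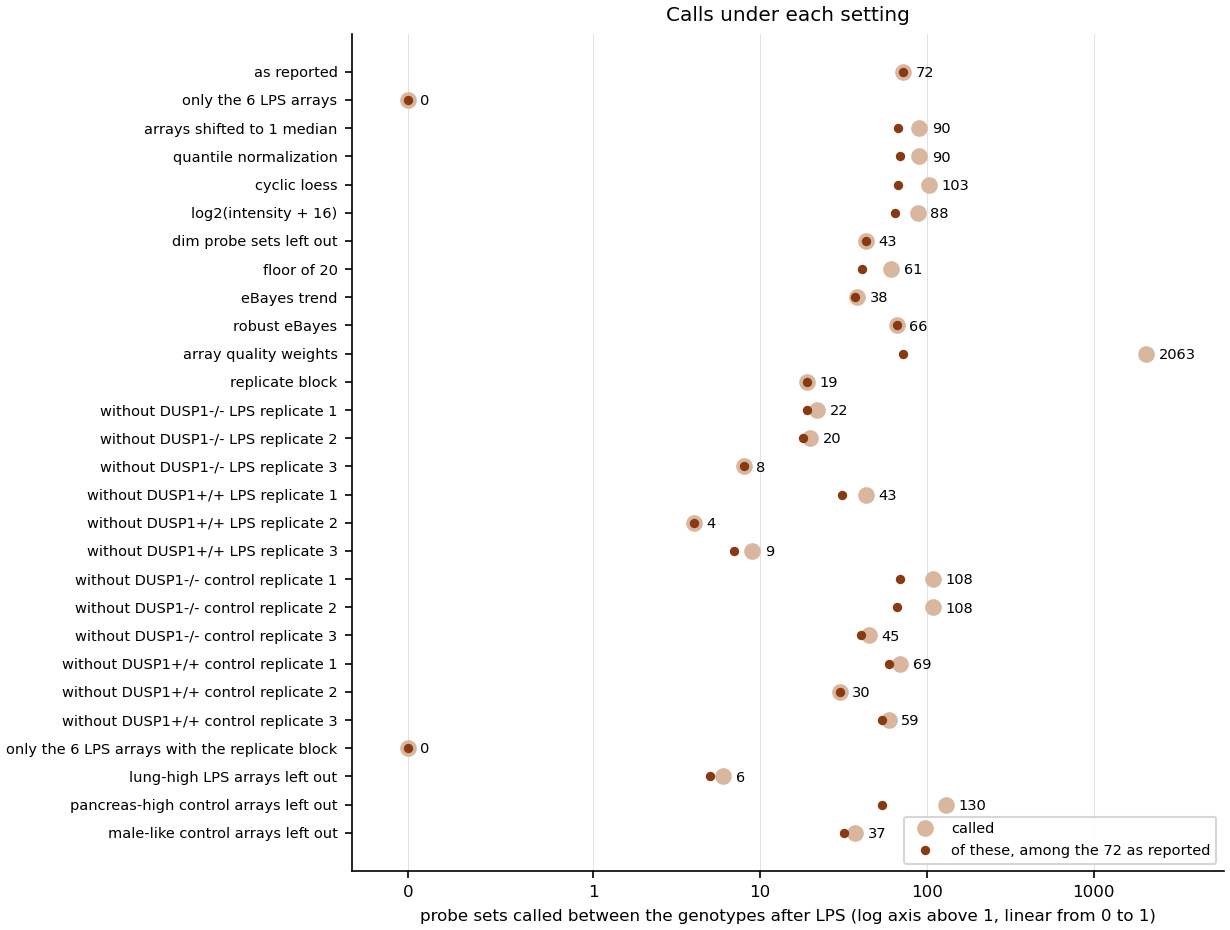
Number of probe sets called between the genotypes after LPS in the reported fit and in 27 refits (large points), and how many of these are among the 72 as reported (small points), on an axis that is logarithmic above 1. Counts ran from 0 with only the 6 LPS arrays to 2063 with array quality weights.

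Arrays of a group correlated at 0.963 to 0.986 in wild-type LPS and 0.965 to 0.989 in knockout LPS, and between the 2 groups at 0.949 to 0.976 (Pearson over probe sets, as a description). Knockout LPS replicates 1 and 3 were high in transcripts of the lung: 15 of 15 measured lung markers had a difference above 0, with 0 called and 0 whose groups did not overlap. Their mean log2 intensity was 6.49, 5.29 and 6.09 in knockout LPS replicates 1, 2 and 3 and 5.25, 5.22 and 5.07 in wild-type LPS. Sftpc, the lung surfactant gene, read 735, 16 and 311 against 59, 19 and 24. Liver markers also varied within both groups (means of 6.19, 8.73 and 7.81 against 6.12, 7.73 and 5.78, all 22 with a difference above 0), and red cell precursor markers were highest in replicate 2 of both groups (7.53 and 7.77). The means of 25 monocyte and macrophage markers were 8.42, 8.59 and 8.57 in knockout against 8.24, 8.13 and 8.12 in wild-type LPS arrays, which did not overlap, with 0 called and a median difference of 0.28. Spleen B cell markers were present in every LPS array (means of 9.06 to 9.67). Among the controls, used only for the spread and for the comparison without LPS, wild-type replicate 1 and knockout replicates 1 and 3 were high in pancreas markers. Wild-type control replicates 2 and 3 had a male pattern, with Xist at 35 and 47 (1101 to 3949 on the other arrays) and the Y-linked Eif2s3y at 316 and 53 (7 to 10 on the others), so that in the controls and in the interaction sex is in part confounded with genotype. Without the 2 lung-high knockout LPS arrays, 6 probe sets were called, of Serpinb2, Ccl12, Cebpg, Gm13889, Tlr7 and Mettl3, and the first 5 of these are among the 72. That fit leaves knockout LPS replicate 2 as the only array of its group, which is assumed to vary like the other groups, and the same holds for every value given below without the lung-high arrays. The part of lung, liver and macrophage RNA in the other results was not tested.

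Promoter letters are shown for 3 of the most raised genes, because MAP kinases act on AP-1 and CRE-binding factors and these are the called rises of largest size whose promoter window holds the AP-1 letters TGANTCA. The windows cover the 250 bases before the start of transcription, 5′ to 3′ on the gene's own strand, from RefSeq on GRCm38.p6, and where a gene has several starts in the table the window with the most matches is printed. Capitals mark the matches. Serpinb2 (chr1:107511173-107511422, plus strand) has TGAATCA with its first base at -94, and Mmp12 (chr9:7347124-7347373, plus strand) has TGAGTCA at -44. Rcan1 (chr16:92400079-92400328, minus strand) has the CRE letters TGACGTCA at -175 and the AP-1 letters TGACTCA at -110.
Serpinb2: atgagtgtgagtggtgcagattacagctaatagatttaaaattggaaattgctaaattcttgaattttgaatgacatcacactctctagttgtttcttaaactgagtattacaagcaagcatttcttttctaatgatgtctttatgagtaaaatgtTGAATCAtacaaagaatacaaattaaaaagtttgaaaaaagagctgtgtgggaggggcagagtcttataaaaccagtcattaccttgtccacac
Mmp12: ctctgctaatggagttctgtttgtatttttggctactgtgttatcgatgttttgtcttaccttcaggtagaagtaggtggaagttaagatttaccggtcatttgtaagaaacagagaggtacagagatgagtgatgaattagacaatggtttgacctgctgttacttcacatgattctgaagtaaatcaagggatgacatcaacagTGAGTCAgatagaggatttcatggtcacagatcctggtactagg
Rcan1: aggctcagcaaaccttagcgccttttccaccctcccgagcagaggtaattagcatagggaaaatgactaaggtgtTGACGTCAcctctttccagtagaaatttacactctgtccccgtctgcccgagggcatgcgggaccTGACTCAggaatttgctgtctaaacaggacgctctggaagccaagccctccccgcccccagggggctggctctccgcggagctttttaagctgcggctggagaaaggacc
Both strands were searched in windows that run on to 50 bases after the start, 300 bases in all. Of the 20 raised and 18 lowered genes named by the rule, 13 and 17 have a promoter in the table. The AP-1 letters were found in 5 of the 17 promoters of raised genes (of Serpinb2, Mmp12, Rcan1 and Lif) and in 1 of the 18 promoters of lowered genes (Hikeshi). The 2 Serpinb2 windows overlap and hold the same match, which is counted in both. By gene the counts were 4 of 13 raised and 1 of 17 lowered. Edn1, Ptx3 and Ccl12, also among the largest rises with a promoter in the table, hold no AP-1 letters. The other window of Mmp12 and of Rcan1 holds none of the letters searched. The 3 printed genes were chosen for their AP-1 letters, so the display itself is not a result. The AP-1 letters stand in 7.81% of all 32851 promoters of the table. The CRE letters TGACGTCA, which do not overlap the AP-1 match in the printed Rcan1 window, were found in 1 promoter of a raised and 1 of a lowered gene (1.79% of all promoters), the NF-kB letters GGGNNTTCC for 1 and 3 (5.82%), the STAT letters GGAANTTCC for 1 and 1 (0.928%) and the interferon-stimulated response element for 1 and 0 (3.44%), and the C/EBP-ATF letters TGATGNAA for 0 and 0 (3.97%). A match describes the letters and is not a bound site.

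Genes of clotting and fibrinolysis are described first. Serpinb2, also called PAI-2, read 13, 10 and 10 in wild-type against 119, 60 and 173 in knockout LPS arrays. It was near the dim end of the array in all wild-type mice and clearly brighter in each knockout mouse. The difference was 3.30 ± 0.32 (adjusted p = 0.00812), and 2.42 where intensities under 20 were set to 20. Without the 2 lung-high arrays it was 2.46. The lowest knockout LPS value, 60, was in replicate 2, which also had the lowest lung marker mean of the 3. Its controls read 11, 13 and 10 in wild-type against 10, 10 and 11 in knockout, so that among the 4 groups the knockout LPS arrays alone rose above the dim end.

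Plat, the tissue plasminogen activator that Serpinb2 and its relatives inhibit, read 123, 69 and 99 in wild-type against 430, 625 and 313 in knockout LPS arrays. Edn1, the precursor of the vasoconstrictor endothelin, read 112, 86 and 120 against 446, 577 and 694. For both genes the groups lay far apart, with the wild-type LPS arrays in turn above all controls, which read 17 to 43. Differences were 2.22 ± 0.31 for Plat (adjusted p = 0.0201) and 2.42 ± 0.32 for Edn1 (adjusted p = 0.0136). In the clotting and fibrinolysis list 3 of 20 measured genes rose (these 3), 0 fell, and the median difference was 0.52, beside 0.02 over all genes. The 2 groups did not overlap with the knockout higher in 9 of the 20 and lower in 1, against 8.73% and 9.60% of all genes (18.3% in either direction), and 10.2% of all genes had an unadjusted p under 0.05.

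Several further members lay apart without passing. Thbd, thrombomodulin, the endothelial receptor that turns thrombin towards anticoagulation, read 61, 28 and 136 in wild-type against 380, 490 and 252 in knockout (2.55 ± 0.47, adjusted p = 0.0615). F3, tissue factor, which starts the clotting cascade, read 23, 21 and 30 against 100, 69 and 80 (1.75 ± 0.31, adjusted p = 0.0554). Tfpi2, an inhibitor of serine proteases, read 66, 18 and 66 against 197, 145 and 263 (2.19 ± 0.46, adjusted p = 0.0932). Promoters and inhibitors of clotting were thus both among the members whose groups did not overlap. Thbd was also lower after LPS than in controls in wild-type spleens (-2.33 ± 0.47, adjusted p = 0.0154) and had a response that did not pass in knockout spleens (0.65 ± 0.47, adjusted p = 0.466).

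Among matrix protease genes Mmp12 was the 1 called. It read 16, 17 and 20 in wild-type against 176, 61 and 342 in knockout LPS arrays. The wild-type arrays were all at the dim end and the knockout arrays spread widely, with the lowest value in replicate 2, which also had the lowest lung marker mean of the 3. The difference was 3.13 ± 0.54 (adjusted p = 0.0442) and 1.79 without the 2 lung-high arrays (adjusted p = 0.346, in a range of 0.000928 to 0.346 over all refits). The list held 18 measured matrix proteases and inhibitors, with a median of 0.25 and 13 above 0. Adamts1, a protease of proteoglycans, read 87, 35 and 121 against 369, 409 and 389 without passing (2.44 ± 0.57, adjusted p = 0.139). The collagenase gene Mmp13 read 1806, 798 and 2184 against 3455, 2349 and 3637 (1.08 ± 0.35, adjusted p = 0.33).

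A pair of matrix proteins that bind growth factors and cell surface receptors also rose. Thbs2, thrombospondin 2, read 23, 21 and 25 against 78, 61 and 63 (1.54 ± 0.19, adjusted p = 0.0127), and its other probe set gave 2.10 ± 0.22 (adjusted p = 0.00812). Ccn1, also known as Cyr61, read 28, 46 and 49 against 147, 164 and 152 (1.95 ± 0.32, adjusted p = 0.0375), with 1.98 ± 0.29 by its other probe set (adjusted p = 0.0238). Both genes were thus called by both of their probe sets, with no overlap between groups.

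Both called chemokine genes encode ligands that draw monocytes and lymphocytes. Ccl4 (MIP-1β) read 452, 945 and 651 in wild-type against 3299, 4141 and 3629 in knockout LPS arrays. Ccl12 (MCP-5), a ligand of Ccr2, read 222, 243 and 255 against 879, 1352 and 767. Every knockout array lay well above every wild-type array for both genes. The differences were 2.49 ± 0.30 for Ccl4 (adjusted p = 0.0118) and 2.02 ± 0.23 for Ccl12 (adjusted p = 0.0115). Ccl3 (MIP-1α), the close relative of Ccl4, read 707, 774 and 369 against 2517, 2498 and 2883, also with no overlap, and missed the threshold (2.16 ± 0.40, adjusted p = 0.0611).

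Ccl4 and Ccl12 were the 2 called genes among 16 measured CC chemokines. The median over the 16 was 0.47, and 12 were above 0. The groups did not overlap for 5, all higher in the knockout: these 3 genes, Ccl7 (0.90 ± 0.21, adjusted p = 0.135) and Ccl2 (931, 664 and 947 against 1687, 1205 and 2222; 0.98 ± 0.41, adjusted p = 0.504). Over all genes 8.73% lay apart with the knockout higher. Of 15 CXC and other chemokines 0 were called, with a median of 0.10 (limma, 2 higher and 1 lower under an unadjusted p of 0.05). The neutrophil attractants Cxcl1 and Cxcl2 lay apart upward (1.48 ± 0.63 and 1.90 ± 0.45, adjusted p = 0.518 and 0.144). Cx3cl1, or fractalkine, read 243, 221 and 241 against 77, 162 and 96 (-1.14 ± 0.25, adjusted p = 0.106).

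Il10, the cytokine that restrains macrophages, rose. Its array values were 79, 89 and 55 in wild-type against 305, 215 and 214 in knockout LPS mice, against 12 to 17 in the 6 controls. All knockout LPS arrays were above the wild-type LPS arrays, which were in turn above the controls, and the difference was 1.73 ± 0.23 (adjusted p = 0.0173). Il10 was the 1 called gene of 23 anti-inflammatory and feedback regulators, whose median was 0.35. Socs3, which blocks cytokine receptor signalling, read 1340, 1344 and 1249 against 2888, 3304 and 2578 and did not pass (1.15 ± 0.47, adjusted p = 0.486). Its controls ran from 58 to 260 and enter the spread of the fit.

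Lif, a cytokine of the IL-6 family, read 40, 47 and 60 in wild-type against 179, 143 and 130 in knockout LPS arrays (1.63 ± 0.20, adjusted p = 0.0121). It was the 1 called member of 11 IL-6 family genes and receptors (median 0.44, 10 above 0) and of 21 proinflammatory cytokines (median 0.27, 15 above 0). Il6 had the larger difference and the wider spread: 603, 183 and 585 against 3021, 2069 and 3063. Its groups lay far apart, yet it missed the threshold (2.74 ± 0.61, adjusted p = 0.112), and its knockout controls read 11, 59 and 13.

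Tnf, the early cytokine of endotoxin shock, pointed the other way. It read 272, 427 and 322 in wild-type against 121, 145 and 120 in knockout LPS arrays, against 44 to 111 in the 6 controls. The knockout LPS arrays were thus below every wild-type LPS array and little above the controls at this single time. The difference did not pass (-1.38 ± 0.29, adjusted p = 0.0885). The groups overlapped for Il1a (0.24), Il1b (0.64), Csf2 (0.73), Il12b (1.26), Ifng (-0.49) and the nitric oxide synthase gene Nos2 (0.33), and none of these passed. Ptgs2, the inducible cyclooxygenase COX-2, read 150, 65 and 142 against 381, 260 and 576 without overlap (1.79 ± 0.37, adjusted p = 0.0884).

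Ptx3, a soluble pattern receptor of the acute phase, was raised from 48, 48 and 21 to 183, 182 and 196 (2.36 ± 0.34, adjusted p = 0.0207). It was the 1 called gene of 23 acute phase and STAT3 target genes. Their median of 0.91 was the highest of the 41 pathway lists, but the groups did not overlap in 4 of the 23. All 4 were higher in the knockout, against 8.73% of all genes. In untreated controls the list median between the genotypes was already 0.65, beside 0.07 over all genes. The median difference between the LPS responses of the 2 genotypes was 0.24. The liver markers that share members with the list varied between mice as given above. Pim1, a survival kinase induced by STATs, read 460, 848 and 707 against 1267, 1913 and 1747 (1.31 ± 0.26, adjusted p = 0.077). Pim1 also had control groups that did not overlap, at 272, 210 and 268 in wild-type against 535, 361 and 421 in knockout.

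**Figure D3:**
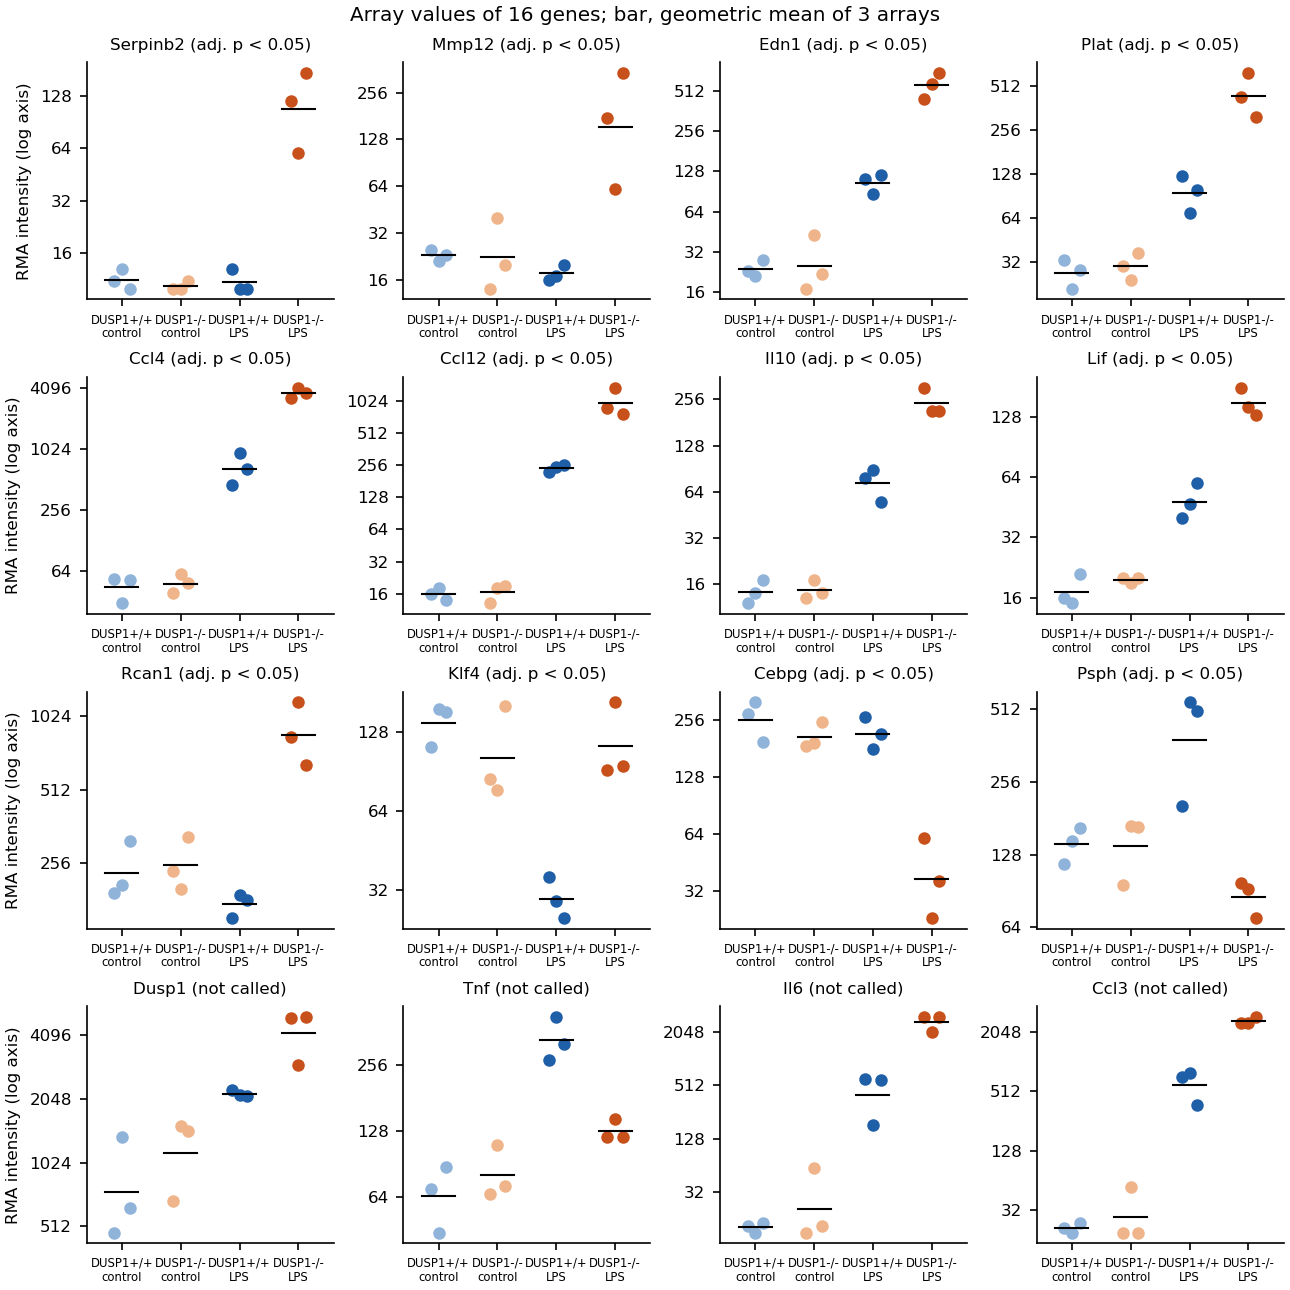
Intensity of 16 genes on each of the 12 arrays (log axis), by group, with the geometric mean of 3 arrays as a bar. The 12 called genes are parted between knockout and wild-type only after LPS; Dusp1, Tnf, Il6 and Ccl3 were not called.

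Regulators of signalling and transcription were also among the named rises. Rcan1, an inhibitor of the phosphatase calcineurin, read 153, 190 and 181 in wild-type against 844, 1168 and 646 in knockout LPS arrays. The knockout arrays were thus above all wild-type LPS arrays and above all 6 controls, which ran from 193 to 329. The difference was 2.31 ± 0.27 (adjusted p = 0.0115), with the same 2.31 by its other probe set, which did not pass (adjusted p = 0.132). The response to LPS, which was called for 8.09% of genes in wild-type and 15.2% in knockout, was -0.42 ± 0.27 for Rcan1 in wild-type and 1.78 ± 0.27 in knockout. Rcan1 was the 1 called gene of 11 in the calcineurin and NFAT list (median 0.14).

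Klf4, a zinc finger factor of macrophages and endothelium, read 36, 29 and 25 in wild-type against 92, 167 and 95 in knockout LPS arrays (1.94 ± 0.32, adjusted p = 0.0406). Controls read 113, 157 and 153 in wild-type against 85, 77 and 162 in knockout. The gene was thus lower after LPS in wild-type (-2.23 ± 0.32, adjusted p = 0.00268) and differed little from its controls in knockout spleens (0.15 ± 0.32, adjusted p = 0.838). It was the 1 called gene of 31 AP-1 and immediate-early genes, the factors that MAP kinases induce first. This list had a median of 0.39, with 27 of 31 above 0, 12 apart upward and 1 apart downward, against 8.73% and 9.60% of all genes. Fosl1, Phlda1, Klf6 and Gadd45g had differences of 1.20, 1.60, 1.14 and 1.16, none past the threshold (adjusted p = 0.288, 0.288, 0.181 and 0.34).

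Rin2, an activator of the endosomal GTPase Rab5, shared the smallest adjusted p with Serpinb2, 6030458C11Rik and a set of Thbs2. Its values were 60, 54 and 74 in wild-type against 243, 215 and 273 in knockout LPS arrays (1.96 ± 0.21, adjusted p = 0.00812). The remaining rises named by the rule ran from 1.67 to 2.09: Cdh17, a cadherin of the gut; Gm13889, a gene with no settled role; Tbx3, a T-box repressor; Asb4, an adaptor of ubiquitin ligases; Cpeb2, which binds the poly(A) control elements of mRNAs; and Ckb, the brain type creatine kinase. Gm13889 was the brightest of these, at 399, 382 and 352 against 1374, 2403 and 942. Ckb fell with LPS in both genotypes, by 2.74 in wild-type and by 1.25 in knockout, with array values of 64, 48 and 42 against 149, 186 and 149 (1.67 ± 0.24, adjusted p = 0.0207).

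Array values of the smaller named rises had the same shape. Cdh17 read 57, 21 and 24 in wild-type LPS arrays against 119, 107 and 174 in knockout (2.09 ± 0.36, adjusted p = 0.0476), and Asb4 51, 23 and 24 against 97, 76 and 133. Tbx3 read 23, 18 and 28 against 75, 90 and 61, and Cpeb2 77, 44 and 70 against 204, 165 and 236. In each the lowest knockout array was above the highest wild-type array. Against the untreated arrays of their own genotype, all 4 rose after LPS in knockout spleens, by 1.67 to 3.22, and among wild-type spleens Asb4 alone of the 4 passed that test (1.66 ± 0.30, adjusted p = 0.00829).

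The 7 called rises beyond the 20 largest included Abcc3, Ehd3, Tha1, Fgd6, Ildr1 and Tslp, with differences of 1.14 to 1.51. Ehd3, an endosomal recycling protein, read 181, 190 and 153 against 389, 532 and 413. Tslp, a cytokine of epithelia that acts on dendritic cells, was dim in every wild-type LPS array (11, 11 and 12) and read 22, 23 and 31 in knockout. Abcc3, an exporter of organic anions, read 43, 62 and 42 against 112, 212 and 109, while its 6 controls lay higher still, at 220 to 313. Ehd3 and Abcc3 thus lay at moderate levels, and Tslp near the dim end.

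Among the called falls, Cebpg read 265, 179 and 215 in wild-type against 61, 23 and 36 in knockout LPS arrays. The knockout LPS arrays were under every other array of the series, where the lowest was 179. The difference was -2.55 ± 0.33 (adjusted p = 0.0131), another probe set was called at -1.41 ± 0.23, and the third, dim at 14 to 20, gave -0.02. Psph, the last enzyme of serine synthesis, read 204, 545 and 502 against 98, 92 and 70 (-2.16 ± 0.37, adjusted p = 0.0422). LPS raised Psph in wild-type (1.44 ± 0.37, adjusted p = 0.0423) and the change in knockout was -0.69 ± 0.37 (adjusted p = 0.277).

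Psph belongs to the list of ATF4 stress and serine synthesis genes. In that list Psph was the 1 of 22 measured genes that fell and 0 rose, the median was -0.74 and 3 were above 0, the lowest median of the 41 lists. The groups did not overlap downward in 5 and upward in 1, against 9.60% and 8.73% of all genes. Psat1, the serine synthesis step before Psph, read 581, 718 and 1398 in wild-type against 436, 79 and 229 in knockout (-2.07 ± 0.58, adjusted p = 0.228). Slc7a3, a carrier of cationic amino acids, read 40, 113 and 147 against 38, 16 and 20 (-1.92 ± 0.45, adjusted p = 0.133), and Ddit3, the stress factor CHOP, 361, 411 and 484 against 262, 108 and 143 (-1.38 ± 0.28, adjusted p = 0.0782). In all 3, knockout replicate 1 was the knockout array nearest the wild-type values. Slc7a11, the cystine carrier of the same list, went the other way (1.20 ± 0.24, adjusted p = 0.0777).

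The other falls were smaller and spread over unrelated roles. 6030458C11Rik, a gene with no settled role, read 153, 140 and 164 against 54, 35 and 38 (-1.87 ± 0.20, adjusted p = 0.00812) and 157 to 224 in the controls. Med20, a Mediator subunit, read 225, 225 and 243 against 84, 54 and 80 (-1.69 ± 0.22, adjusted p = 0.0131) and was called by both of its probe sets. Cdc23, a subunit of the anaphase-promoting complex, read 116, 108 and 109 against 50, 40 and 37 (-1.40 ± 0.18, adjusted p = 0.0127). In these 3 genes the wild-type LPS arrays differed little among themselves and the knockout arrays lay clear below them.

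Mrpl49, a protein of the mitochondrial ribosome (-1.73 ± 0.28, adjusted p = 0.0357), and Hikeshi, the nuclear import carrier of Hsp70 (-1.31 ± 0.22, adjusted p = 0.0441), were also called by both of their sets. Tmem129 and Rnf181 encode ubiquitin ligases (-1.96 and -1.57), Pigc and Gba2 enzymes of glycolipids (both -1.53), Mlx a partner of glucose-sensing factors (-1.22) and Taz the cardiolipin enzyme tafazzin, at 288, 262 and 288 against 135, 132 and 151. Crebzf, a bZIP factor, stood at -1.75, and Ngrn, Ankzf1, 0610009B22Rik and Aagab between -1.65 and -1.07. Another probe set of the gene had a difference above 0 for Pigc (0.26), Gba2 (0.076), Crebzf (0.031) and Ankzf1 (0.098 and 0.064), and none of these sets passed. The Ankzf1 set at 0.098 ends in _x_at and was brighter on the LPS arrays (164 to 214) than the called set (45 to 120). Of 28 mitochondrial ribosomal proteins in the list 0 were called (limma, 5 lower with no overlap and 4 under an unadjusted p of 0.05), with a median of -0.29 and 1 above 0, the largest being Mrpl18 (-1.10 ± 0.20, adjusted p = 0.055). Over all genes 9.60% were lower with no overlap.

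The 16 genes called through a set that does not represent them, 8 up and 8 down, were named after their values were seen. Tlr7, the receptor of single-stranded RNA, was called by 2 sets (2.29 and 2.19), while its brightest set read 431, 84 and 86 against 289, 186 and 606, with overlap (1.13 ± 0.72). Il2ra, the IL-2 receptor alpha chain, was called at 1.86 ± 0.29 and its brighter set gave 1.74 ± 0.35 (adjusted p = 0.078). Sets disagreed for Chd1 (2.33 against -0.20), Rbl1 (2.19 against 0.19), Fem1b (1.82 against -1.19), Mbd1 (2.03 against 0.23), Gpatch8 (-1.22 against 0.17) and Hspa4 (-2.28 against -0.13). For these the call belongs to a probe set and not to the gene. Further sets, none called, gave 0.24 for Chd1, -0.81 for Gpatch8, -0.52 for Hspa4 and -0.53, 1.07 and 1.33 for Mbd1. Of these further sets, those of Gpatch8 and Hspa4 and the Mbd1 sets at 1.07 and 1.33 lay apart in the direction of the call. Among the falls of this kind, Dynll1, a light chain of dynein, was the brightest, at 1253, 1741 and 1195 against 431, 720 and 419 (-1.44 ± 0.24, adjusted p = 0.0422). Acp2, a lysosomal acid phosphatase, read 282, 198 and 174 against 72, 88 and 79 (-1.43 ± 0.20, adjusted p = 0.0207). A set that names both Cog8 and Pdf read 165, 253 and 183 against 48, 41 and 42 (-2.18 ± 0.27, adjusted p = 0.0121) and cannot be given to either gene.

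**Figure D4:**
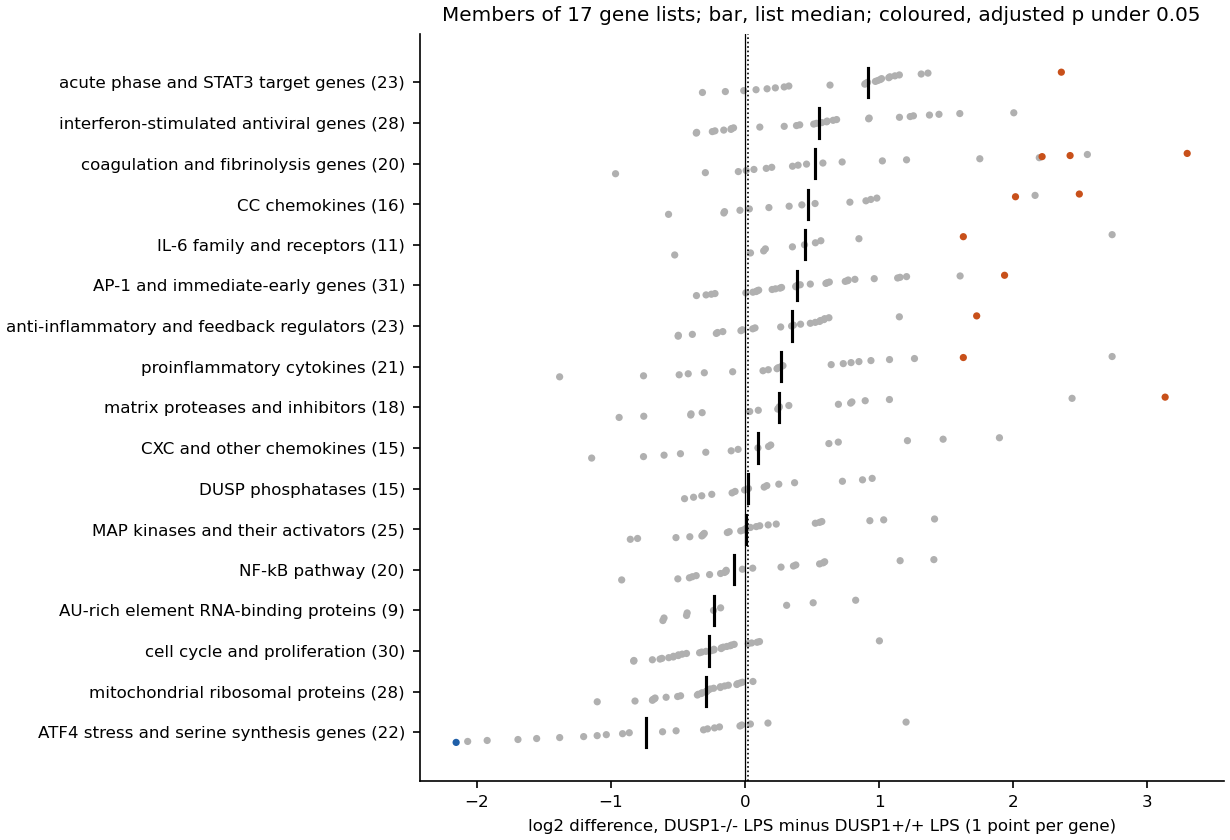
Log2 difference between DUSP1-/- LPS and DUSP1+/+ LPS for each measured member of 17 gene lists (number of genes in brackets), with the list median as a bar, called genes in colour and the median of all genes as a dotted line. Medians run from 0.91 for acute phase and STAT3 target genes to -0.74 for ATF4 stress and serine synthesis genes. In untreated controls, not drawn, the medians of these 2 lists were 0.65 and 0.01.

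Lists of the pathway that Dusp1 brakes gave no call at the RNA level, where 0.363% of all genes were called. Over all genes 10.2% had an unadjusted p under 0.05 by limma. The groups lay wholly apart with the knockout higher in 8.73% of all genes and lower in 9.60%. That held for 3 and 1 of the DUSP phosphatases and for 4 and 5 of the MAP kinases and their activators. Of 15 measured DUSP phosphatases and of 25 MAP kinases and their activators 0 were called, with medians of 0.03 and 0.00 (limma, 2 and 7 under an unadjusted p of 0.05). Dusp16, a JNK phosphatase, read 730, 428 and 505 against 1163, 755 and 1110 (0.88 ± 0.31, adjusted p = 0.394), and Dusp2 1148, 1610 and 1285 against 2110, 2788 and 1826 (0.73 ± 0.51, adjusted p = 0.819). Of 20 NF-kB pathway genes 0 were called, with 3 under an unadjusted p of 0.05, 4 apart upward and 4 apart downward. Their median was -0.08, which turned to 0.01 under cyclic loess. Of 9 RNA-binding proteins of AU-rich elements, the factors that p38 acts through, 0 were called, with 1 under an unadjusted p of 0.05 and a median of -0.24. Of these 9, 3 lay apart upward and 1 downward.

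Interferon-stimulated antiviral genes had a median of 0.55, and 0 of 28 were called (limma, 5 under an unadjusted p of 0.05). Mx2, a dynamin-like antiviral GTPase, read 290, 147 and 146 against 841, 395 and 1209 (2.00 ± 0.54, adjusted p = 0.204), and Dhx58, an RNA sensor, 945, 1020 and 819 against 1638, 1868 and 1753 (0.92 ± 0.18, adjusted p = 0.072). In 9 of the 28 the knockout arrays lay wholly above and in 1 wholly below the wild-type arrays, against 8.73% and 9.60% of all genes. Without the lung-high arrays the list median was 0.27. Cell cycle genes had 0 calls of 30 (limma, 2 under an unadjusted p of 0.05) and a median of -0.27, with 5 above 0. The inhibitor Cdkn1a (p21) read 549, 647 and 587 against 1013, 1848 and 894 (1.00 ± 0.29, adjusted p = 0.258).

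Other immune lists held 0 calls as well, and their members of smallest p, outside the genes above, are given as values. Complement genes (14 measured, 3 under an unadjusted p of 0.05 by limma, median 0.03) had Cfb, factor B of the alternative pathway, at 1828, 1516 and 1628 against 660, 714 and 675 (-1.28 ± 0.31, adjusted p = 0.151). Factor B was lower in every knockout LPS mouse than in any wild-type one. Of 16 Toll-like receptor and LPS sensing genes (4 under an unadjusted p of 0.05, median 0.35), the LPS co-receptor Cd14 read 2187, 1935 and 2081 against 3549, 3885 and 2883 (0.72 ± 0.23, adjusted p = 0.315). Of 19 metallothionein and antioxidant genes (4 under an unadjusted p of 0.05, median 0.25), the heme oxygenase gene Hmox1 read 577, 429 and 866 against 902, 1575 and 1515 (1.11 ± 0.30, adjusted p = 0.202). In 6 of these 19 the knockout arrays lay wholly above the wild-type arrays and in 1 wholly below, against 8.73% and 9.60% of all genes. Among 17 genes of cholesterol synthesis and LDL uptake (2 under an unadjusted p of 0.05) the median was -0.23 and 1 was above 0.

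Marker genes of lymphoid and myeloid cells gave 0 calls in every list, macrophage markers included, where 0.363% of all genes were called. Of 25 macrophage markers, 8 lay apart upward and 1 downward, against 8.73% and 9.60% of all genes. The upward and downward counts were 2 and 4 for B cell, 1 and 3 for T cell and 0 and 3 for NK and cytotoxic markers. They were 0 and 2 for neutrophil and 2 and 1 for dendritic cell markers. Medians were -0.07 over 13 B cell markers, 0.15 over 14 T cell markers, -0.37 over 14 NK and cytotoxic markers, -0.37 over 16 neutrophil markers and 0.04 over 14 dendritic cell markers. For NK and cytotoxic markers the summed level did not overlap between the genotypes, with means of 7.15, 6.82 and 6.85 in wild-type LPS arrays against 6.54, 6.66 and 6.52 in knockout. Neutrophil means overlapped (7.65, 7.99 and 7.67 against 7.15, 7.82 and 7.23). The part of NK cell number in any result was not tested.

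Without LPS the same test called 0 of 22626 probe sets in the controls (limma, 337 or 1.49% with an unadjusted p under 0.05, smallest adjusted p = 1). Over the 72 probe sets called after LPS, differences in controls ran from -0.45 to 0.39, and 0 had an unadjusted p under 0.05. Of the 72, 3 had control groups that did not overlap, 1 upward among the 38 raised and 2 upward among the 34 lowered. This is not under the share over all probe sets, given next. Over all probe sets 2.46% of control groups and 16.8% of LPS groups did not overlap. The controls varied more within groups than the LPS arrays (median SD of 0.30 and 0.35 against 0.24 and 0.22). Leaving out the 3 pancreas-high controls left knockout control replicate 2 alone against the 2 wild-type controls with a male pattern. That array was also high in lung and liver markers. Sex, lung and liver RNA and genotype therefore cannot be told apart in that fit, and the lone array is assumed to vary like the other groups.

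Whether the response to LPS itself differed between genotypes was asked with the interaction term, which uses all 12 arrays. It called 0 probe sets (limma, 1230 or 5.44% with an unadjusted p under 0.05, smallest adjusted p = 0.164). All 72 probe sets had an unadjusted p under 0.05 there, with adjusted p from 0.164 to 0.616, but the term shares the LPS arrays that chose them. Serpinb2 came first, with a response of -0.05 in wild-type and 3.38 in knockout (interaction 3.42 ± 0.45). For Ccl4 the responses were 3.87 and 6.24 (2.37 ± 0.43), and for Ccl12 3.91 and 5.88 (1.97 ± 0.33). These chemokines were thus induced in both genotypes, while Serpinb2 stayed dim in wild-type LPS arrays. Without the pancreas-high controls the interaction called 233 probe sets, with the same lone knockout control array and the same male-pattern wild-type controls.

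**Figure D5:**
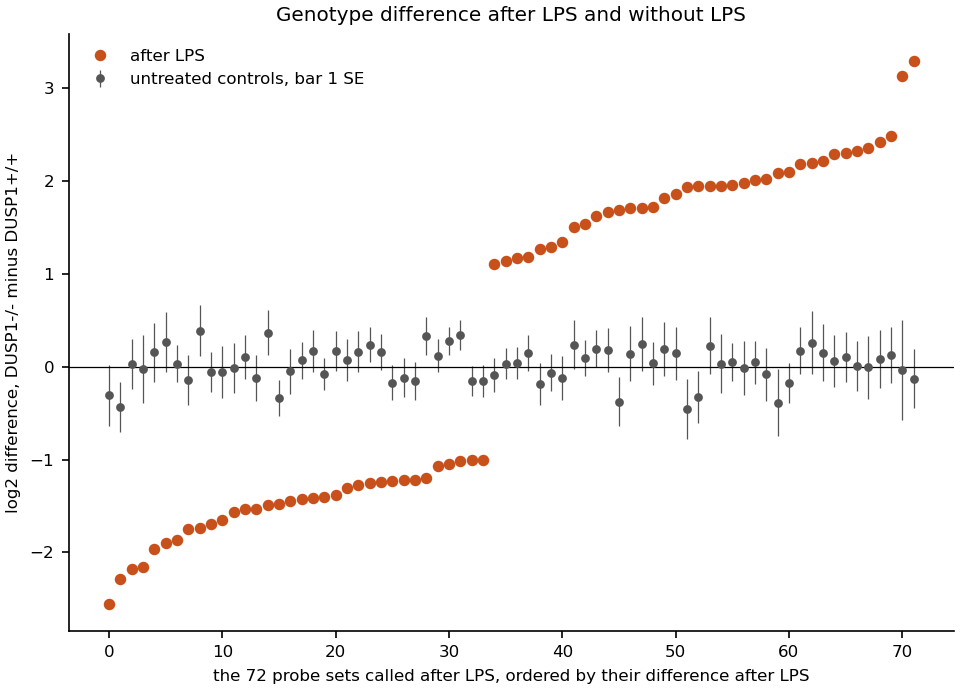
Log2 difference between the genotypes for the 72 probe sets called after LPS, after LPS (orange) and in untreated controls (grey, with 1 standard error), ordered by the first. After LPS all lie beyond 1 or -1, and in controls they lie between -0.45 and 0.39.

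How firmly each call stands can be read from the arrays it needs. Of the 72 probe sets, 3 stayed called without any 1 of the 12 arrays: those of Serpinb2 and 6030458C11Rik and the Thbs2 set at 2.10, with adjusted p of up to 0.0499. The set that represents Thbs2 was lost without knockout LPS replicate 1 or 3 or wild-type LPS replicate 2 or 3. Rin2 was lost without wild-type LPS replicate 2 (adjusted p = 0.0589, in a range of 0.0118 to 0.0589 over leave-outs), and Ccl12 and Rcan1 without wild-type LPS replicate 2 or 3 (up to 0.0589). Ccl4 was lost without knockout LPS replicate 2 or 3 or wild-type LPS replicate 3 (up to 0.0536), and Lif without knockout LPS replicate 1 or 3 or wild-type LPS replicate 2 (up to 0.0742). Cebpg and Med20 were lost without knockout LPS replicate 3 or wild-type LPS replicate 2 or 3 (up to 0.0763). Edn1, Plat and Cdc23 each needed 4 of the 6 LPS arrays, Il10 and Ptx3 all but wild-type replicate 1, and 40 of the 72 probe sets, those of Klf4, Ccn1, Mmp12 and Psph among them, were called in fewer than 6 of the 12 leave-outs.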

How the data were processed

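RNA of 12 mouse spleens, 3 per group, was measured on 1 array each. The authors deposited RMA-normalised intensity values on a linear scale, rounded to whole numbers (6 to 15228), per the submitters' processing notes, with no version given. RMA summarises several probes into 1 value and scales arrays to each other, which can hide a shift common to all genes. The deposited probe set values did not share 1 distribution. Array medians were 47 to 52 in wild-type LPS and 48 in knockout LPS. They were 49 to 57 in wild-type controls and 52 to 63 in knockout controls. The scanner files were not analysed here, so that background and saturation of single probes are unknown, and the number of arrays limits the precision.

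Intensities were taken to log2 and fitted with limma 3.58.1 in R 4.3.3 as 4 group means over all 12 arrays (8 residual and 2.722 prior degrees of freedom), for 3 contrasts, each with Benjamini-Hochberg adjustment over 22626 probe sets and a threshold of 0.05. The 64 control probe sets were left out. Probe sets were named through the platform annotation, updated by gene identifier (20351 of 22626): 20380 name 1 gene, 691 several and 1555 none. A gene was represented by the set of highest mean over the 12 arrays among those naming it alone (12393 genes). Sets ending in _x_at were left aside where there was another. On simulated data, 42, 76, 94 and 98% of 50 probe sets changed 2-, 4-, 8- and 16-fold were called after LPS. Beside these 21, 38, 47 and 49 calls there were 12 false calls. The simulated arrays were independent and, but for the changed sets, had equal group means. They held no lung, pancreas or sex differences between arrays, so the error rate in these data was not tested.

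Named genes are the up to 20 largest called rises and falls with a mean over the LPS arrays above the 40th percentile (intensity 28.6) and no overlap, a fixed set of cytokine genes, and members of each list by size or p. The comparison, 41 pathway lists, 18 marker lists (1016 of 1165 members measured) and the rule were chosen with earlier results of these data known. Samples of a group came from separate mice. Alternatives covered the arrays in the fit, normalisation, pseudocount, dim values, the prior, array weights, the replicate block and leave-outs. The values of 1 called gene are not reported here.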

Additional observations from a re-analysis of the deposited data

How the results depend on the processing

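As reported, 38 probe sets were called higher and 34 lower, and 45 genes were called by their representing set. With only the 6 LPS arrays the counts were 0, 0 and 0. Cyclic loess gave 61 higher. With dim probe sets left out, which tests fewer sets, the counts were 25 higher, 18 lower and 27 genes. The floor of 20 gave 21 lower. A trended prior gave 7 lower, 23 genes and 1 call in the interaction, and array quality weights 842, 1221 and 1280. Leaving out 1 array gave 3 to 59 higher, 1 to 56 lower, 3 to 68 genes, 0 to 1 calls in controls and 0 to 1 in the interaction. The cause of these shifts was not tested.

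With the replicate block the counts were 13 higher, 6 lower and 12 genes, all 19 probe sets among the 72, and with the block on the 6 LPS arrays alone 0, 0 and 0. Same-numbered LPS arrays did not deviate together throughout (correlations of 0.069, 0.63 and -0.21), so the numbers were not taken to pair mice.

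In settings chosen after seeing the data, leaving out the lung-high LPS arrays gave 4 higher, 2 lower and 5 genes. Leaving out the pancreas-high controls gave 63, 67 and 79, with 348 calls in controls and 233 in the interaction, and leaving out wild-type control replicates 2 and 3, which have a male pattern, gave 22, 15 and 22, with 12 and 11. Each of these 3 settings leaves 1 array in an arm (knockout LPS replicate 2, knockout control replicate 2 and the pancreas-high wild-type control replicate 1), assumed to vary like the other groups. Direction turned for Gba2 (0.076), Crebzf (0.031) and Timp2 (-0.070) with the probe set of smallest spread, for Il1a without wild-type LPS replicate 2 (-0.10, in a range of -0.10 to 0.80 over leave-outs) and without the lung-high arrays (-0.15), and for Il1b without the latter (-0.32). Of the gene values under alternatives, 2084 kept side and direction, 583 fell back across the threshold and 114 passed it. Values under 20, 31.2% of those on LPS arrays, limit the folds of dim genes.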
